A study of Mus musculus with 17 samples.

Results

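The T cell receptor complex and its first signalling steps were followed here through 9 genes taken by name: Cd3d, Cd3e, Cd3g, Cd247, Zap70, Lck, Lat, Lcp2 and Skap1. All 9 have a row among the 48397 genes of the 12 bulk tables and among the 28208 genes shared by the 5 single-cell matrices. In the single-cell data they were read in T and NK cells, which were chosen by UMIs of other genes: 1305 T cells and 22 NK cells of 19578 cells kept.

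The receptor that recognises peptide on MHC molecules cannot signal by itself. It travels with the CD3 chains, encoded by Cd3d, Cd3e and Cd3g, and with a dimer of the zeta chain, encoded by Cd247, whose tails carry tyrosine motifs. The kinase LCK phosphorylates those motifs, ZAP-70 binds them and phosphorylates the membrane adaptor LAT and the cytosolic adaptor SLP-76 (Lcp2), and SKAP1 (SKAP-55) helps couple the receptor to integrin adhesion. NK cells carry the zeta chain, ZAP-70 and LCK beneath other receptors, and myeloid cells carry SLP-76.

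The bulk part of the series holds 3 libraries in each of 4 groups, titled PD1_Fc, Ctrl_Fc, PDL1_Fc and Control. All are labelled as splenic T cells of WT mice, all were stimulated with antibodies to CD3 and CD28, and the labels give 72 h as the time at which activation was measured. PD-1 Fc is a soluble fusion of the receptor that binds PD-L1, and Ctrl_Fc received a control IgG Fc, both at 2.5 µg/ml. Control had the stimulating antibodies alone. For 4 of the 12 libraries the stated agent contradicts the title: replicate 3 of PD1_Fc is listed with PDL1 Fc, and all of PDL1_Fc with PD1 Fc. No PD-L1 Fc is described in the protocol, so the groups are called by their titles. The single-cell part holds 1 library from each of 5 genotypes, called here flfl_CD4Cre, flWT_CD4Cre, CD4Cre, flfl and WT, where flfl and flWT stand for homozygous and heterozygous floxed PD-L1, the product of Cd274. The labels call them tumour-infiltrating T cells and also describe sorted CD45+ leukocytes from pancreatic tumours 3 weeks after orthotopic implantation, untreated. CD4Cre denotes Cre driven by the Cd4 promoter, which is active in developing T cells and therefore in CD8 T cells as well as CD4 T cells. Nothing in the labels says that bulk libraries came from separate mice or cultures, so their p-values measure the spread between these libraries, which may be technical.

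Cd3g, Cd3d and Cd3e lie side by side on chromosome 9, and Lcp2, shown beside them, is the member also found in myeloid cells. On GRCm38, Cd3g (chr9:44969572-44980431, minus strand) and Cd3d (chr9:44981786-44987339, plus strand) point away from each other, with starts 1355 bases apart, and Cd3e (chr9:44998740-45009627, minus strand) follows, so that the 3 genes span 40056 bases. Lcp2 is at chr11:34046920-34092295 on the plus strand. The sequences are RefSeq promoters on GRCm38.p6, 250 bases before and 50 after the start, on the strand of the gene, and show the letters in front of genes whose levels differ so widely below. Capitals mark exact matches, on either strand and not overlapping each other, to 5 motifs of factor families active in T cells. The ETS family was searched as AGGAAG. The RUNX family was searched as TGTGGT. The E proteins were searched as CAGCTG. The TCF and LEF family was searched as CTTTGA. The GATA family was searched as AGATAA.
Cd3g: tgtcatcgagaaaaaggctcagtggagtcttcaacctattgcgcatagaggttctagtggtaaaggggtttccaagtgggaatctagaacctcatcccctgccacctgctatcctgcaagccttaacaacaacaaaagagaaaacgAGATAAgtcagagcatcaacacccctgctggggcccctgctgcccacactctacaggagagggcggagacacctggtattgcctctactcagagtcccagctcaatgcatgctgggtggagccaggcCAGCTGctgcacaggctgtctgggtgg
Cd3d: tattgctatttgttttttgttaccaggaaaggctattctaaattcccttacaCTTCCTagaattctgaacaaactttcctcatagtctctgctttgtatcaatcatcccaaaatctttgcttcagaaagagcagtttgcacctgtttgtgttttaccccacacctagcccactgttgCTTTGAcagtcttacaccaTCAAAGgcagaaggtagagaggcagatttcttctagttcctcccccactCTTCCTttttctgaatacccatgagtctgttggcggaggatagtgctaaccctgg
Cd3e: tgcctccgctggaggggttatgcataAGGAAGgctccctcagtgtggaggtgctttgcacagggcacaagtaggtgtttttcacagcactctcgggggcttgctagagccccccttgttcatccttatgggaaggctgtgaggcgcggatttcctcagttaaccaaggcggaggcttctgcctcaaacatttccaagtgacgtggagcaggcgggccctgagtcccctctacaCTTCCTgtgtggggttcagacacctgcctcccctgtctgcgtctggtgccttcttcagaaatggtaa
Lcp2: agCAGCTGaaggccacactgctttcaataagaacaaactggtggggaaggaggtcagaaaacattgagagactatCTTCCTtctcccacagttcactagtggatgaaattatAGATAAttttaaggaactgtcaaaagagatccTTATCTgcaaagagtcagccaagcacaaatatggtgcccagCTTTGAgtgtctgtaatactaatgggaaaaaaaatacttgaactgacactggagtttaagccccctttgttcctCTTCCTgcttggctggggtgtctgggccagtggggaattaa
These windows are chr9:44980382-44980681 for Cd3g, chr9:44981536-44981835 for Cd3d, chr9:45009562-45009861 for Cd3e and chr11:34046678-34046977 for Lcp2. Cd3d held 2 ETS and 2 TCF matches, Cd3e held 2 ETS matches, Cd3g held 1 E protein and 1 GATA match and no ETS match, and Lcp2 held 2 ETS, 1 E protein, 1 TCF and 2 GATA matches. The background was 27025 promoters of this length, the first listed for each gene symbol. Of these, 35.1% held the ETS letters, 16.9% RUNX, 16.1% E protein, 16.2% TCF and 11.4% GATA, so single matches are common. Promoters of 8 of the 9 genes were matched by symbol, and Skap1 is named only. The remaining loci are Cd247 (chr1:165788681-165877277, plus), Zap70 (chr1:36761798-36782818, plus), Lck (chr4:129548344-129573641, minus), Lat (chr7:126363824-126369570, minus) and Skap1 (chr11:96464593-96759130, plus).

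The bulk libraries fell into 2 sets that stood apart in depth and content. Gene counts summed to 4364803 to 5006301 in PD1_Fc, 3473884 to 4662029 in Ctrl_Fc, 14880455 to 16020727 in PDL1_Fc and 16732833 to 18557390 in Control. Unaligned reads made up 79.9% to 80.4% of PD1_Fc and Ctrl_Fc libraries, against 8.95% to 11.2% of PDL1_Fc and Control libraries. Against their label, PDL1_Fc and Control libraries held next to no T cell RNA: 11 T cell markers summed to 993 to 1228 CPM in PD1_Fc and Ctrl_Fc and to 1.99 to 3.59 CPM in PDL1_Fc and Control, where Trac reached 0.131 CPM at most and 2 of the 11 were at 0 counts. The 7 macrophage markers summed to 35.0 to 142 CPM in PD1_Fc and Ctrl_Fc, against 18894 to 26838 CPM in PDL1_Fc and Control, and B cell and NK cell lists stayed under 100 CPM in every library. Several genes common to most cells were also low in PD1_Fc and Ctrl_Fc libraries. There, 4 of 16 housekeeping genes were under 10 CPM on average, against 0 of 16 in PDL1_Fc and Control. Gapdh had 1.60 to 2.79 CPM in PD1_Fc and Ctrl_Fc and 10.7 to 15.2 CPM, near that cut, in PDL1_Fc and Control. B2m, above the cut in both sets, had 13.6 to 83.2 CPM in PD1_Fc and Ctrl_Fc, against 12065 to 13047 CPM in PDL1_Fc and Control. Between Ctrl_Fc and Control, 8 of the 16 were called higher and 8 lower in edgeR, beside 44.4% and 47.4% of all genes. None of the 16 was at 0 counts throughout either set. The set of library and the group title cannot be told apart in the pairs that cross the sets, and in bulk RNA fewer cells of a type and less RNA per cell cannot be told apart.

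The CD3 chains were read very unevenly in the libraries that held T cell RNA. Cd3d, the delta chain, had 0 counts in all 3 PD1_Fc and all 3 Ctrl_Fc libraries, against 1, 2 and 8 counts in PDL1_Fc and 1, 1 and 1 in Control. A count of 0 allows up to 0.211 CPM over the PD1_Fc libraries and 0.25 CPM over the Ctrl_Fc libraries. The gene next to Cd3g was thus not detected in these libraries, and it was too low everywhere to be tested. The reason for the 0 counts was not tested. Cd3g, the gamma chain, had 56, 41 and 44 counts in PD1_Fc and 38, 43 and 73 in Ctrl_Fc, against 0 in every PDL1_Fc and Control library. Cd3e, the epsilon chain that pairs with both, had 1113, 1144 and 1265 counts in PD1_Fc and 922, 1038 and 1122 in Ctrl_Fc, against 3, 2 and 0 in PDL1_Fc and 2, 0 and 0 in Control. Per length of exon, Cd3e averaged 60.7 ± 4.22 RPKM in PD1_Fc and 63.2 ± 3.63 in Ctrl_Fc, whereas Cd3g averaged 3.03 ± 0.436 and 3.84 ± 0.822 RPKM in the same groups (SD, n = 3 each). Subunits of a complex with fixed proportions were thus listed at levels per length that ranged from 0 to over 60 RPKM in the same libraries. Cd247, the zeta chain, averaged 37.1 ± 1.84 CPM in PD1_Fc and 36.8 ± 2.67 in Ctrl_Fc, against 3.26 ± 0.947 in PDL1_Fc and 2.62 ± 0.485 in Control (SD, n = 3 each). Its exons share 3007 bases with Pou2f1 on the other strand, and how reads in those bases were assigned is unknown. The overlap may therefore have raised or lowered the Cd247 counts, which was not tested.

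Both kinases were abundant in PD1_Fc and Ctrl_Fc and far lower elsewhere, Zap70 near the floor and Lck well above it. Lck had 463, 484 and 477 CPM in PD1_Fc and 496, 507 and 479 in Ctrl_Fc, against 7.37, 7.53 and 6.43 in PDL1_Fc and 6.21, 7.01 and 6.69 in Control. Zap70 had 317, 314 and 315 CPM in PD1_Fc and 340.0, 369 and 289.8 in Ctrl_Fc, against 0.457, 0.0672 and 0.499 in PDL1_Fc and 0.378, 0.216 and 0.657 in Control. No library of one set came near the other set for either kinase. Per length they were the highest of the 9 genes in Ctrl_Fc, at 169 ± 4.76 RPKM for Lck and 111 ± 13.4 RPKM for Zap70, ahead of Cd3e (SD, n = 3 each).

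Among the adaptors Skap1 shared this pattern, and Lat and Lcp2 did not. Skap1 had 93.1, 98.5 and 98.5 CPM in PD1_Fc and 99.0, 96.8 and 103 in Ctrl_Fc, against 0 in all 6 PDL1_Fc and Control libraries. Lat was listed in every library, with 41.3, 41.01 and 37.6 CPM in PD1_Fc and 35.7, 51.5 and 39.04 in Ctrl_Fc, against 16.5, 17.8 and 17.7 in PDL1_Fc and 21.5, 22.4 and 20.5 in Control. Lcp2 barely differed between sets in CPM, at 70.7, 74.9 and 73.1 in PD1_Fc and 77.1, 79.5 and 87.3 in Ctrl_Fc, against 77.0, 81.4 and 78.4 in PDL1_Fc and 78.5, 83.0 and 88.0 in Control. In the libraries dominated by macrophage markers Lcp2 and Lat were thus the members with the most counts, followed by Lck and Cd247.

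**Figure D1:**
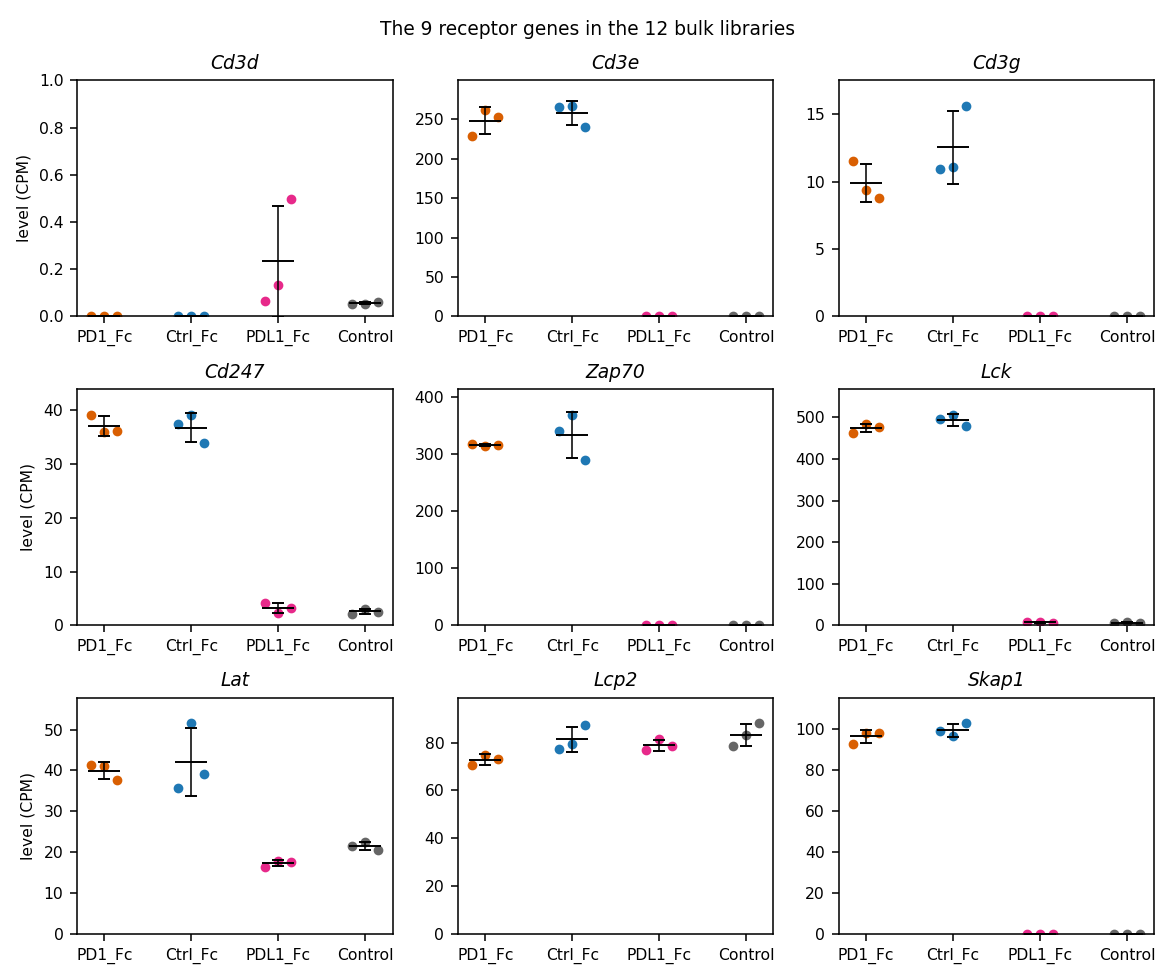
Level of each of the 9 genes (CPM, linear axis from 0) in PD1_Fc, Ctrl_Fc, PDL1_Fc and Control, with a point per library and the mean ± SD of 3 libraries as a bar with whiskers. Cd3d is at 0 in PD1_Fc and Ctrl_Fc. In PDL1_Fc and Control, Cd3d, Cd3e, Cd3g, Zap70 and Skap1 reach at most 0.657 CPM. Lcp2 lies between 70.7 and 88.0 CPM in all 12 libraries.

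Between Ctrl_Fc and Control, 6 of the 8 genes tested rose and 1 fell by edgeR's quasi-likelihood test at an adjusted p under 0.05, in a comparison in which 44.4% of 14653 genes rose and 47.4% fell. Nearly all genes were called, so the count says little about these 8 by itself. Cd3g was at least 225-fold higher and Skap1 at least 1787-fold higher in Ctrl_Fc, against a floor of 3 counts over the Control group. Cd3e was 6900 times higher, with a counting interval of 1908 to 57000 that reflects its 2 Control counts. These bounds and this ratio are on CPM by library total, and TMM scaling makes such folds smaller, with 3216 fitted for Cd3e in edgeR, a value that depends on the prior count. Zap70 rose by 8.88 log2 (SE 0.18, adjusted p 2.43e-51), Lck by 5.47 (SE 0.12, adjusted p 1.78e-50) and Cd247 by 3.06 (SE 0.19, adjusted p 1.07e-24), in edgeR. Lcp2 fell by 0.77 log2 (SE 0.10, adjusted p 3.87e-10 in edgeR), although CPM of the groups overlapped. TMM factors were 1.18 to 1.36 in PD1_Fc and Ctrl_Fc, against 0.769 to 0.795 in PDL1_Fc and Control, and with library totals in their place, a choice made after seeing the data, Lcp2 differed by -0.03 log2 (adjusted p 0.759 in edgeR). That choice moves the median of all genes to 0.61 log2, from -0.13 with TMM. Lat differed by 0.22 log2 (SE 0.13, adjusted p 0.102 in edgeR), but was called higher with DESeq2 size factors (0.32, adjusted p 0.0131) and with library totals (0.97, adjusted p 1.25e-09).

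Between PD1_Fc and PDL1_Fc, 7 of the 8 rose and 1 fell in edgeR, beside 45% of 14653 genes that rose and 46.8% that fell. These 6 libraries are not the 6 of the preceding pair. On CPM by library total, Cd3g was at least 152-fold higher and Skap1 at least 1490-fold higher in PD1_Fc. Zap70 rose by 9.11 log2 (SE 0.19), Lck by 5.38 (SE 0.12), Cd247 by 2.83 (SE 0.18) and Lat by 0.53 (SE 0.13), with adjusted p of 7.13e-51, 5.41e-50, 1.53e-23 and 0.000208 in edgeR. Cd3e was 2287 times higher in CPM, with a counting interval of 979 to 7048. Lcp2 fell by 0.79 log2 (SE 0.10, adjusted p 1.85e-10 in edgeR), and differed by -0.12 (adjusted p 0.21) with library totals, so the size of its difference and its call, though not its sign, depended on the scaling in both pairs.

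The question the bulk design poses is what soluble PD-1 does to stimulated T cells, and none of the 9 genes was called there. In PD1_Fc against Ctrl_Fc, 0 of the 8 genes tested passed in edgeR, where 0.0478% of all genes did (7 genes, with 771 at an unadjusted p under 0.05, and 18 genes by DESeq2, with no member among them in either). Cd3g had the smallest p, at -0.29 log2 (SE 0.27, adjusted p 0.932). Lcp2 was 70.7 to 74.9 CPM in PD1_Fc and 77.1 to 87.3 CPM in Ctrl_Fc. Its log2 difference of -0.10 had an SE of 0.11 and an adjusted p of 0.947 in edgeR. The other 6 differed by -0.01 to 0.08 log2, with SEs of 0.09 to 0.16, so differences of about that size were not detectable with these libraries.

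In PDL1_Fc against Control, 0 of 8 were called in edgeR and 0% of all genes were called (0 genes, with 528 at an unadjusted p under 0.05, and 0 by DESeq2). Lat was 16.5 to 17.8 CPM in PDL1_Fc and 20.5 to 22.4 CPM in Control, at -0.31 log2 (SE 0.13, unadjusted p 0.0143, adjusted p 1 in edgeR). Skap1 and Cd3g were at 0 in both groups, and Cd3e rested on 5 and 2 counts, so these 3 genes carry no information on that pair. Zap70 rested on 16 and 22 counts, at -0.24 log2 (SE 0.50), and carries little. Skap1, Cd3g, Cd3e and Zap70 were among the genes tested only through their counts in PD1_Fc and Ctrl_Fc.

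Other genes of the receptor pathway were followed in 8 lists, to be read against the 44.4% of all genes that rose and the 47.4% that fell between Ctrl_Fc and Control. Between Ctrl_Fc and Control, all 4 receptor constant chains rose in edgeR, with Trbc1 at 357 to 483 CPM over PD1_Fc and Ctrl_Fc libraries and at most 0.216 CPM over PDL1_Fc and Control libraries. Of 7 coreceptor and costimulation genes 4 were tested and 3 rose. Cd6 had 128 to 171 CPM over PD1_Fc and Ctrl_Fc libraries, whereas Cd2 reached 0.229 CPM there, Cd5 reached 0.916 CPM and Cd8b1 was at 0, although all 3 are found on T cells. Among the kinases, Fyn rose by 5.17 log2 (adjusted p 6.65e-50) and Prkcq by 8.81 (adjusted p 1.03e-39), while Tec fell by 6.24 log2 (adjusted p 5.78e-43). Adaptors and exchange factors split 7 to 5 of 12 tested, close to that background, with Plcg1, the phospholipase that LAT recruits, higher by 3.89 log2 (adjusted p 3.57e-44) and Fyb, a partner of SLP-76 and SKAP proteins, lower by 1.99 (adjusted p 9.54e-25). The 14 inhibitors split 7 higher and 5 lower, again near it, with Csk, the kinase that restrains LCK, higher by 2.22 log2 (adjusted p 3.16e-32). Among the downstream genes, Nfatc2, a transcription factor of calcium signalling, was higher by 3.69 log2 (adjusted p 3.1e-34), and Malt1 and Bcl10, which act in NF-kappaB signalling, were lower by 2.69 and 3.94 (adjusted p 1.49e-34 and 1.11e-32), in edgeR. Of 11 activation targets tested, 8 rose and 3 fell, and Cd69 and Tnfrsf9, which T cells display once activated, were among those that fell. In PD1_Fc against Ctrl_Fc, none of these genes was called.

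The relatives that do the same work in myeloid and B cells ran the other way. All 10 fell between Ctrl_Fc and Control and again between PD1_Fc and PDL1_Fc in edgeR, with medians of -7.29 and -7.71 log2, against -0.13 and -0.07 over all genes. For Plcg2 the fall of 0.54 log2 between Ctrl_Fc and Control rests on TMM, since it had 18.5 to 23.9 CPM in Ctrl_Fc and 17.7 to 20.5 CPM in Control. Over both pairs its CPM overlapped, at 18.5 to 24.8 in PD1_Fc and Ctrl_Fc libraries and 17.4 to 21.7 in PDL1_Fc and Control libraries. Syk, the relative of ZAP-70, averaged 2.75 ± 1.43 CPM in PD1_Fc and 3.87 ± 2.81 in Ctrl_Fc, against 557 ± 8.48 in PDL1_Fc and 541 ± 34.6 in Control (SD, n = 3 each). Fcer1g, a signalling chain akin to zeta, had 10.7, 3.67 and 3.2 CPM in PD1_Fc and 3.45, 2.83 and 11.2 in Ctrl_Fc, against 1676 ± 78.3 in PDL1_Fc and 1623 ± 133 in Control (SD, n = 3 each). The first PD1_Fc and the third Ctrl_Fc library stood apart in the same way for Lyz2, a macrophage gene, at 126 and 130.0 CPM, against 28.1 to 37.4 CPM in the other 4. Lat2 was at 0 in all 3 Ctrl_Fc libraries and averaged 34.7 ± 7.05 CPM in Control. Skap2 was the least divided of the relatives drawn, at 23.2 ± 3.88 CPM in PD1_Fc and 20.9 ± 0.677 in Ctrl_Fc, against 104 ± 4.64 in PDL1_Fc and 107 ± 2.38 in Control (SD, n = 3 each).

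**Figure D2:**
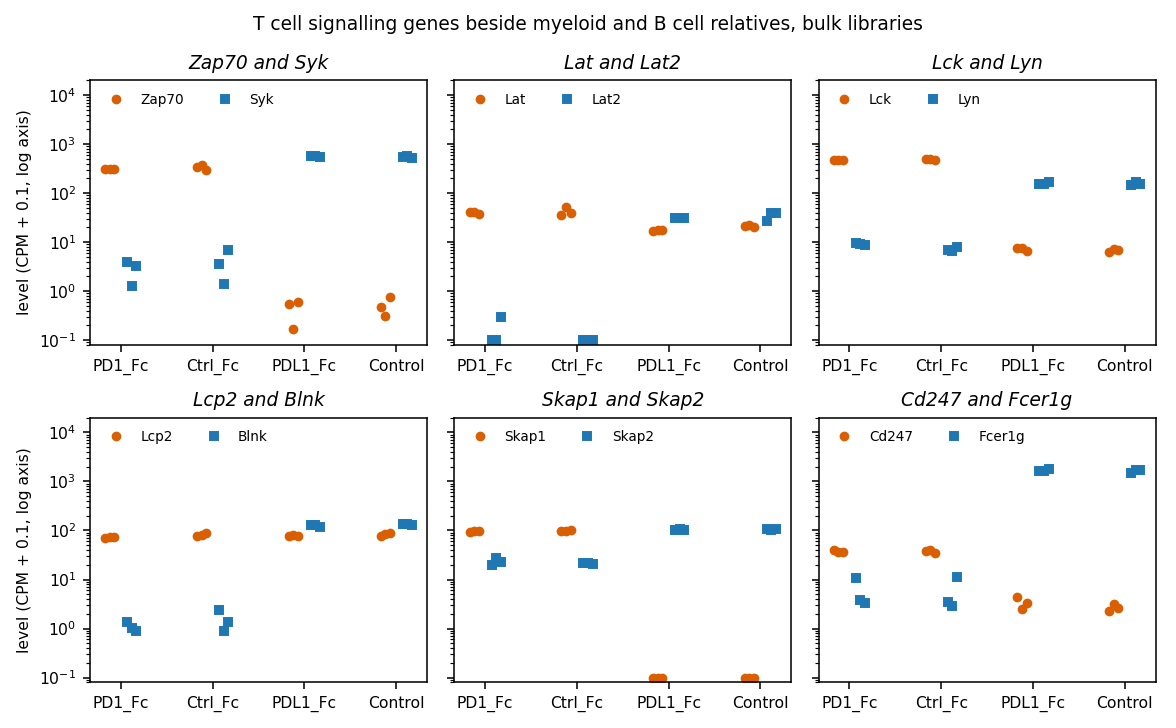
Level (CPM plus 0.1, log axis) of 6 receptor genes as circles and of their myeloid and B cell relatives as squares, a point per library, in PD1_Fc, Ctrl_Fc, PDL1_Fc and Control. Zap70 averages 315 CPM in PD1_Fc, where Syk averages 2.75 CPM, and the order is the reverse in PDL1_Fc and Control, while Lcp2 stays at 70.7 to 88.0 CPM throughout.

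In the tumours, the libraries and gates came with limits that bear on every value. T cells needed at least 2 UMIs of Trac, Trbc1 and Trbc2, NK cells at least 2 of Ncr1, Klrb1c, Klre1 and Klra8, and none of the 9 genes was used. The T gate held 79 cells in flfl_CD4Cre, 105 in flWT_CD4Cre, 112 in CD4Cre, 625 in flfl and 384 in WT, and the NK gate 6, 3, 4, 8 and 1. In flfl_CD4Cre, 16 of the 79 T cells also carried at least 2 UMIs of epithelial keratins or Epcam, and these cells supplied 59.7% of the UMIs of the gate, against 65.1% in flWT_CD4Cre, 16.5% in CD4Cre, 21.6% in flfl and 34.8% in WT. Cell barcodes were shared between libraries of the first 3 genotypes, 1856 between flfl_CD4Cre and flWT_CD4Cre, 1414 between flfl_CD4Cre and CD4Cre and 1710 between flWT_CD4Cre and CD4Cre, against 0 to 12 in every other pair. A stricter gate was therefore added after seeing the data: T cells also needed 5 receptor constant UMIs per 10000 UMIs, and NK cells needed 2 NK UMIs per 10000 and no Trac UMI, whatever their Trbc UMIs. Cells that met this NK rule were taken out of the T gate, so the change altered both sides of the comparison of T with NK cells. The stricter gates kept 56, 80, 102, 539 and 341 T cells and 14, 4, 15, 27 and 12 NK cells, in the same order of libraries. In the T gate they cut the share of UMIs from cells with epithelial UMIs to 2.06%, 15.4%, 6.44%, 3.92% and 15.6%.

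The gene targeted by the genotypes gave no check of the labels. Cd274 had 66.5 CPM in strictly gated T cells of flfl_CD4Cre (31 UMIs, 95% counting interval 45.2 to 94.4), 43.5 in flWT_CD4Cre, 61.9 in CD4Cre (45.3 to 82.5), 9.68 in flfl and 7.36 in WT. Which exons the floxed allele removes is not given in the sources used here, and RNA that ends outside them would still be counted, so these levels say nothing on whether the allele was deleted. Libraries are called by their genotype labels. The gene list divides the libraries in the same way as the Cd274 level does, 31053 genes in the first 3 matrices and 28692 in flfl and WT.

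All 9 genes were expressed in tumour T cells of every library, and 8 of them were nearly confined to T and NK cells among the gates compared. In strictly gated T cells Cd3d had 689 CPM in flfl_CD4Cre, 791 in flWT_CD4Cre, 742 in CD4Cre, 1056 in flfl and 1084 in WT, so the chain with 0 counts in the bulk T cell libraries was plainly read here. Cd3g had 860.2, 974, 1042, 1535 and 1744 CPM and Cd3e 652, 658, 899.7, 717 and 807 CPM in the same order. Cd247 had 167, 150.5, 187, 159 and 175 CPM, the narrowest relative range of the 9. Lck had 294, 329.5, 386, 488 and 549 CPM and Zap70 120.1, 127, 189.6, 202 and 237 CPM, both lowest in flfl_CD4Cre and highest in WT. The T gates differed in makeup, with CD8 T cells 18 of 56 in flfl_CD4Cre, 38 of 80 in flWT_CD4Cre, 35 of 102 in CD4Cre, 443 of 539 in flfl and 282 of 341 in WT, and the part of that in these levels was not tested. Lat had 348, 247, 309, 354 and 316 CPM and Skap1 281, 233, 249, 206 and 212 CPM, with no such order.

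Cd3e UMIs were found in 91.1% to 96.1% of these T cells in 4 libraries and in 86.3% of those of flWT_CD4Cre, at median depths of 5528 to 7413 UMIs per cell. In myeloid cells, which should lack the gene, the share was 0.0732% to 9.25%, and in B cells 0% to 7.14%, so that level stands for background. After thinning each cell to 1000 UMIs, which left out 1 T cell of flfl_CD4Cre, 8 of flWT_CD4Cre and 1 of CD4Cre, 41.8% of T cells in flfl_CD4Cre, 50% in flWT_CD4Cre, 64.4% in CD4Cre, 48.6% in flfl and 54.0% in WT still held a Cd3e UMI. T cells held UMIs of 6.73 to 7.49 of the 9 genes on average, NK cells of 3.5 to 4.42 and B and myeloid cells of at most 1.04.

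Lcp2 was again the member with a second home. It had 277, 182, 219, 81.0 and 81.7 CPM in T cells of flfl_CD4Cre, flWT_CD4Cre, CD4Cre, flfl and WT, and 157, 129, 142, 79.5 and 69.8 CPM in their myeloid cells, where the other 8 genes reached at most 12.8 CPM. In both cell types the first 3 libraries were above flfl and WT, so the library set moved with the level, and its part in the result was not tested. B cells held 7.14 to 15.1 CPM of Lck, and Cd3g reached 15.2 CPM in B cells of flfl.

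**Figure D3:**
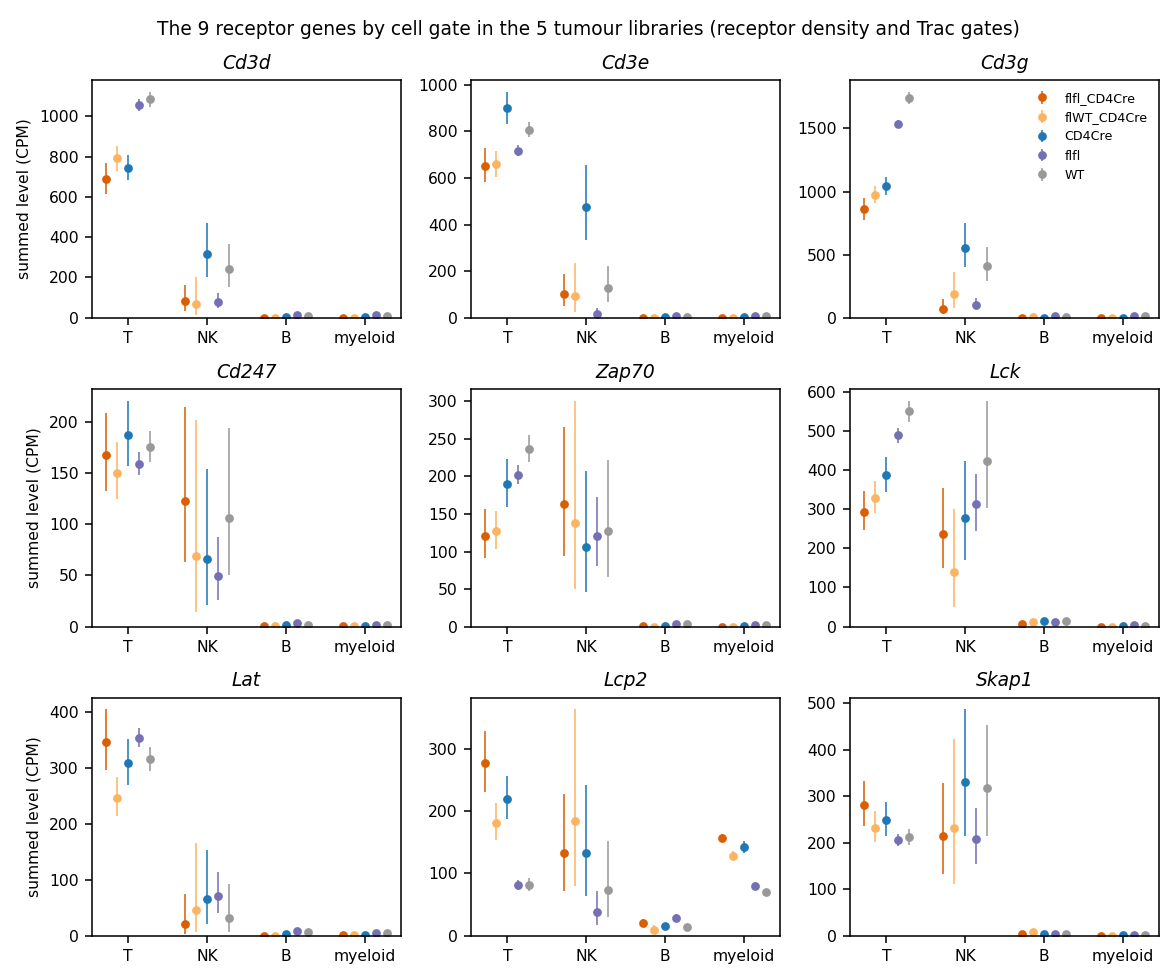
Summed level of each gene (CPM, linear axis from 0) in T, NK, B and myeloid cells under the stricter gates, a point per library with its exact 95% Poisson interval, which covers counting error only. The 3 CD3 genes, Cd247 and Lat are higher in T than in NK cells in every library. Lck, Zap70 and Skap1 overlap between T and NK cells, and Lcp2 alone exceeds 12.8 CPM in myeloid cells.

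T cells were then compared with NK cells. With the first gates, edgeR on summed counts with the library as a block called 4 of the 9 higher in T than in NK cells, beside 2.06% of 6307 genes called higher in T cells, and none lower: Cd3d by 4.48 log2 (SE 0.76, adjusted p 1.56e-06), Cd3g by 4.48 (SE 0.71, 1.86e-07), Cd3e by 3.997 (SE 0.73, 1.38e-05) and Lat by 4.21 (SE 0.86, 0.000175). The NK side was 22 cells, and the single NK cell of WT carried 8 Cd3d, 4 Cd3e and 17 Cd3g UMIs. With the stricter gates and 72 NK cells, 3 of the 9 were called, beside 1.48% of 4795 genes: Lat by 2.76 log2 (SE 0.27, adjusted p 3.12e-06), Cd3d by 2.65 (SE 0.38, 0.00768) and Cd247 by 1.11 (SE 0.26, 0.0193), each higher in T cells in 5 of 5 libraries. Cd3e (2.69, SE 0.66, adjusted p 0.179) and Cd3g (2.52, SE 0.52, 0.106) lost their calls. Without CD4Cre, whose NK cells held 475 CPM of Cd3e against 16.6 to 127 CPM in the other 4, Cd3d, Cd3e, Cd3g and Lat were called and Cd247 was not (adjusted p 0.00188 for Cd3e and 0.0799 for Cd247 in edgeR). Without flfl, whose NK cells had the lowest Cd3e, Cd3e and Cd3g were called as well, at adjusted p of 0.00117 and 0.0148, and Cd247 lost its call, as it did without WT, at 0.211 and 0.0651 in edgeR.

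The kinases, Lcp2 and Skap1 were not called between T and NK cells with the first or the stricter gates, but Lck, Zap70 and Skap1 were with a T gate of 3 UMIs (Lck 2.15 log2, adjusted p 0.0162), with 5 receptor UMIs per 10000 in T cells alone (2.34, 0.000754) and by DESeq2 (2.45, 0.00447). Under the stricter gates Lck differed by 0.59 log2 (SE 0.18, adjusted p 0.105), Zap70 by 0.47 (SE 0.25, 0.475), Lcp2 by 0.70 (SE 0.24, 0.178) and Skap1 by -0.10 (SE 0.19, 0.94) in edgeR, which does not show that the levels are equal. In NK cells Lck had 236, 138, 277, 312 and 422 CPM, Zap70 164, 138, 105, 121 and 127 CPM and Skap1 215, 231, 330, 208 and 317 CPM in flfl_CD4Cre, flWT_CD4Cre, CD4Cre, flfl and WT. Lat, the scaffold of the T cell receptor pathway, had 20.5, 46.1, 65.9, 70.7 and 31.7 CPM there, on 2 to 17 UMIs a library. These NK cells also carried 461 to 1109 CPM of the 3 receptor constant genes, all of it Trbc1 and Trbc2 by the gate. The 5 NK genes that the gate did not use, Nkg7, Gzma, Prf1, Eomes and Klrk1, summed to 4149 to 12635 CPM in NK cells, against 1296 to 4003 CPM in T cells. In CD8 T cells alone they summed to 3044 to 4523 CPM, which overlaps the NK range. Cd3d UMIs were found in 21.4% to 41.7% of these NK cells and Cd3g UMIs in 21.4% to 33.3%. Whether some of these cells were T cells was not tested.

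The genotype comparison the labels point to, T cells of flfl_CD4Cre against CD4Cre, rests on 1 library each and allows no test. With the first gate the 9 genes summed to 1261 CPM in flfl_CD4Cre and 3351 CPM in CD4Cre, a log2 ratio of -1.41 (95% counting interval -1.49 to -1.33). Cd3d, Cd3e, Cd3g, Cd247, Zap70 and Lck were lower, with intervals apart and a level below all 4 other libraries, as were 6.76% of 4172 genes. The stricter gate left 3688 CPM in flfl_CD4Cre and 4224 CPM in CD4Cre, a log2 ratio of -0.20 (-0.28 to -0.11), and only Cd3e, Cd3g and Zap70 met that rule, beside 2.86% of 3807 genes. Cd3e had 652 CPM (581 to 729.7) in flfl_CD4Cre and 899.7 CPM (833 to 970.6) in CD4Cre. Cd3g had 860.2 CPM (778 to 949) in flfl_CD4Cre and 1042 CPM (970.2 to 1118) in CD4Cre, intervals that come close to touching. Zap70 had 120.1 CPM (90.7 to 156) in flfl_CD4Cre and 189.6 CPM (159.6 to 224) in CD4Cre. Leaving out cells with shared barcodes under the first gate gave a log2 ratio of -0.31. The share of UMIs from cells with epithelial UMIs was 59.7% in flfl_CD4Cre and 16.5% in CD4Cre under the first gate. Under the stricter gate it was 2.06% and 6.44%. That gate selects on receptor constant UMIs per 10000 and not on epithelial UMIs, so the change in ratio cannot isolate this share. The part of the epithelial share in the result was not tested.

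**Figure D4:**
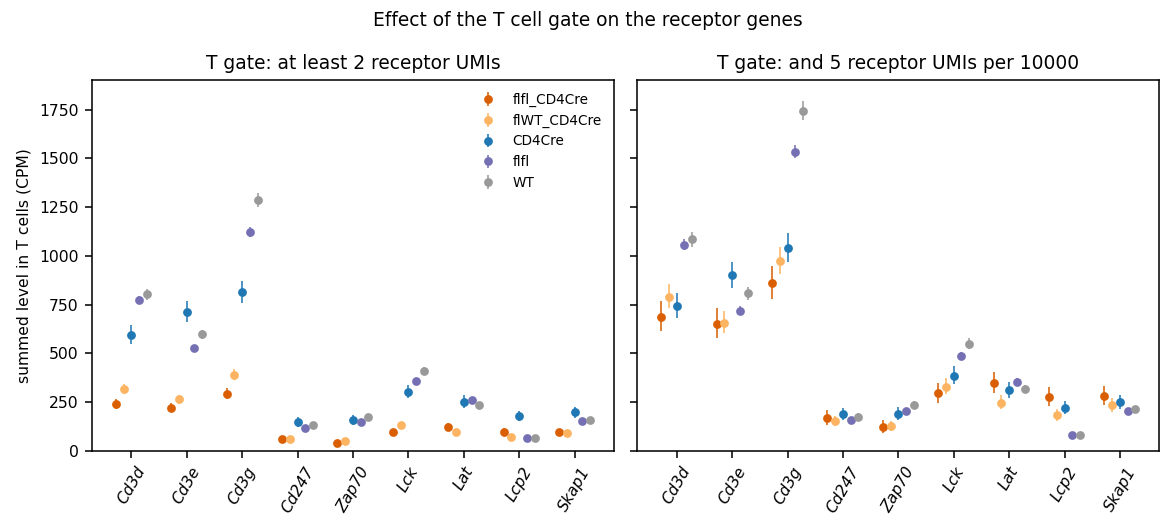
Summed level in T cells (CPM, linear axis from 0) of the 9 genes in flfl_CD4Cre, flWT_CD4Cre, CD4Cre, flfl and WT, with exact 95% Poisson intervals. The gate is at least 2 receptor UMIs on the left. On the right it adds 5 receptor UMIs per 10000 and leaves out cells of the stricter NK gate. The low levels of flfl_CD4Cre and flWT_CD4Cre on the left, such as 238 CPM of Cd3d in flfl_CD4Cre, move to 689 CPM on the right, close to the 742 CPM of CD4Cre.

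The direction of that ratio was not shared by the T cell subsets. Under the stricter gate it was 0.20 log2 (0.07 to 0.33) in CD8 T cells, -0.58 (-0.72 to -0.44) in CD4 T cells without Foxp3 and 0.06 (-0.21 to 0.33) in Foxp3 T cells, on 18, 21 and 7 cells of flfl_CD4Cre and 35, 33 and 15 of CD4Cre. flWT_CD4Cre against CD4Cre gave -0.19 (-0.27 to -0.12) in all T cells, and flfl against WT gave -0.12 (-0.15 to -0.09). The pairs of flfl_CD4Cre and of flWT_CD4Cre share the CD4Cre library.

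The shares of Cd3g and Cd3e among the signalling subunits differed between the first 3 libraries and the other 2, whereas those of Cd3d overlapped. Cd3g made up 36.3% of the UMIs of Cd3d, Cd3e, Cd3g and Cd247 in flfl_CD4Cre T cells, 37.8% in flWT_CD4Cre and 36.3% in CD4Cre, against 44.3% in flfl and 45.8% in WT. Cd3e made up 27.5%, 25.6% and 31.3% in the first 3 and 20.7% and 21.2% in flfl and WT. The exact 95% binomial intervals of Cd3g were 33.5% to 39.2% in flfl_CD4Cre, 34.3% to 38.4% in CD4Cre and 44.8% to 46.7% in WT. In CD8 T cells alone Cd3g made up 38.7%, 38.4% and 37.5% in the first 3, against 44.7% in flfl and 46.1% in WT. In CD4 T cells without Foxp3 the sets were not divided, with 43.3% in flWT_CD4Cre and 40.4% in flfl. The T gates also differed in makeup, as given above, and its part in these shares was not tested. By the labels, the 3 libraries with 31053 genes are the 3 that carry Cre, so set and Cre cannot be told apart. The file names exchange flWT_CD4Cre and WT, and by them that match would not hold. Neutrophil markers summed to 8.58 to 39 CPM in the T cells of those 3 libraries and to 709 and 4107 CPM in flfl and WT, and their part in the result was not tested.

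**Figure D5:**
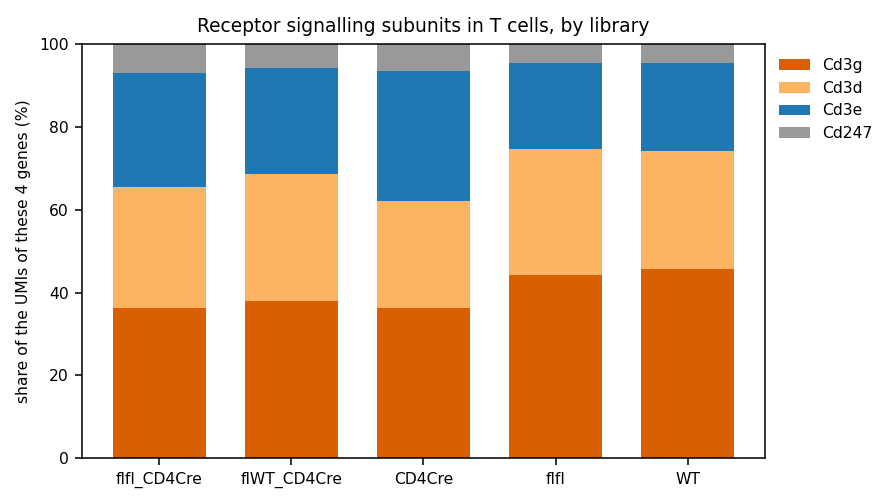
Share (%) of Cd3g, Cd3d, Cd3e and Cd247 UMIs among the UMIs of these 4 genes in strictly gated T cells, a stacked bar per library from 0 to 100%. Cd3g takes 36.3% to 37.8% in flfl_CD4Cre, flWT_CD4Cre and CD4Cre and 44.3% to 45.8% in flfl and WT.

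All T cell subsets held all 4 signalling chains in every library, at levels that differed. Cd247 had 156 CPM in CD4 and 151 in CD8 T cells of flfl_CD4Cre, nearly the same. It had 305 in CD4 and 113 in CD8 T cells of flWT_CD4Cre, 255 and 127 in CD4Cre, 311 and 146 in flfl and 259 and 162 in WT, with a median log2 ratio of 1.00 over the 5 libraries. Between Foxp3 and CD8 T cells the median log2 ratio was 0.44 for Cd247, -0.36 for Cd3d, -0.87 for Cd3e, -0.81 for Cd3g and -0.71 for Skap1. The Foxp3 groups held 7 to 20 cells a library, these ratios were picked after being seen, and an exact sign-flip test over 5 libraries cannot give a p below 0.0625, so they are a description.

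Correlations were taken across the 30 sums of 6 cell groups in 5 libraries, under the first gates. The NK sums there held 6, 3, 4, 8 and 1 cells, and Cd3d and Cd3g were at 0 in 3 of them. Cd3d and Cd3g followed each other most closely (Pearson r 0.996 on log2 CPM plus 1), then Lck and Skap1 (0.979) and Cd3e and Zap70 (0.968). Lcp2 followed the other 8 at 0.18 to 0.63. The genes most like the mean of the 9 were Sh2d1a (r 0.955), Ubash3a (0.929), Cxcr6 (0.921), Thy1 (0.919) and Cd6 (0.915), of 7475 compared. These r values are over sums that share libraries and depth and are set by the contrast between T or NK cells and the rest, so they are a description.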

How the data were processed

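Bulk values are the authors' deposited raw counts per gene, and single-cell values are the authors' deposited UMI counts per gene and cell. Per the submitters' processing notes, bcl2fastq, STAR, HTSeq, bedtools, Cell Ranger and mm10 were used; of their versions, the sources here state one, software version 3.1.0, per the file headers of 3 matrices. Per the labels' protocols, an RNeasy mini kit gave the RNA and the iScript kit the cDNA. Summary lines of the count tables that name no gene were left out of library sizes (42.6% to 88.2% of reads, mostly unaligned).

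The 9 genes, the other lists, the gates and the comparisons were chosen with earlier results of these data known. Groups follow the titles. The deposited file names exchange flWT_CD4Cre and WT relative to the labels; the label decided.

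All 12 bulk libraries were fitted together with edgeR 4.0.16 (R 4.3.3) with TMM factors, the default filter and robust quasi-likelihood tests, with Benjamini-Hochberg adjustment over 14653 genes at 0.05. Each SE was computed by dividing the absolute log2 change by the root of its F statistic. DESeq2 1.42.0, other scalings, no filter, other sets of libraries, a block by replicate number and omission of each library were alternatives. RPKM uses the exon union of GENCODE M21 on GRCm38, and sequences are RefSeq's. Same-numbered bulk libraries did not deviate together over all genes tested (correlations -0.13 to 0.09), so the main fit did not pair them by number. Such correlations cannot exclude a shared mouse or culture. No 2 libraries of a group agreed within sampling noise (chi-square over its degrees of freedom 1.56 to 20.3).

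Barcodes needed 200 detected genes and no more than 10% mitochondrial UMIs. As doublets, cells ranked top by Scrublet were dropped, up to 0.8% for every 1000 cells in the library (scanpy 1.11.5, Python 3.11.15). T and NK gates also allowed at most 1 B cell UMI and under 1% myeloid UMIs. T and NK cells were compared on summed UMIs with the library as replicate block. Levels of single libraries carry exact Poisson intervals and shares exact binomial intervals, at 95%, for counting error only. Genes named beyond the 9 come from fixed lists: up to 4 per list by smallest p, those at 0, and the 5 most like the mean of the 9 genes among those reaching 50 CPM. Gapdh, B2m, Lyz2, Plcg2, Cd2, Cd5, Syk and Fcer1g, the stricter gates and the ratios between T cell subsets were chosen after their values were seen. Calling steps were tested on simulated data. Some genes of the lists are not reported here, and reads were not analysed here.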

Additional observations from a re-analysis of the deposited data

How the results depend on the processing

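For PD1_Fc against Ctrl_Fc, where 7 genes were called, DESeq2 called 18, a fit of the 6 libraries alone 27, a fit without the 4 libraries with conflicting labels 2, and omission of single libraries 0 to 8. The block by replicate number called 7, and changed no count of members in any bulk pair. None of the 9 genes was called under any of these, but small differences changed sign. Cd3e was -0.054 log2 with DESeq2 size factors, -0.056 with library totals, -0.054 by DESeq2, -0.056 in the 6 libraries and -0.067 without the 4. Under the same 5 settings Lck was -0.056, -0.058, -0.055, -0.058 and -0.057, and Skap1 was -0.042, -0.044, -0.042, -0.044 and -0.054. Without a filter on low counts Zap70 was 0.011 and Lat 0.0054. Omission of single libraries moved Cd247 over -0.000189 to 0.15, Lat over -0.13 to 0.13, Lck over -0.015 to 0.044, Lcp2 over -0.16 to 0.018, Skap1 over -0.021 to 0.11 and Zap70 over -0.049 to 0.057. For PDL1_Fc against Control, 1 gene was called without a filter and 0 to 1 with single libraries left out, and Zap70 ranged from -0.63 to 0.21. Across the sets, where 1 member fell in each pair, library totals left 0 in either pair, and no filter gave 2 for PD1_Fc against PDL1_Fc. In Ctrl_Fc against Control, Lat was also called by DESeq2 (0.32) and without Ctrl_Fc replicate 1 (0.33, adjusted p 0.028).

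Between T and NK cells, where 209 genes and 4 members were called, the number of genes was 341 with a T gate of 1 UMI, 23 after thinning, 1002 by DESeq2, 461 without a filter, 76 with no replicate block and 64 to 428 with single libraries left out. The number of members was 7 with a T gate of 3 UMIs, 7 with no receptor UMI allowed in NK cells, 8 with 5 receptor UMIs per 10000, 8 by DESeq2 and 2 with no replicate block. Lcp2 was -0.074 log2 with the T gate of 1 UMI, and Skap1 -0.10 with the stricter gates and -0.016 with these and no shared barcodes. For flfl_CD4Cre against CD4Cre, where the summed ratio was -1.41, it was -2.25 with a T gate of 1 UMI, -0.96 at 3 UMIs, -0.22 after thinning, -0.19 with 5 receptor UMIs per 10000, -0.31 without shared barcodes, -0.20 with the stricter gates, -0.27 with these and no shared barcodes, 0.20 in CD8 and -0.67 in CD4 T cells. Cd3d was 0.43 after thinning and 0.16 in CD8 T cells, Cd3g 0.17 in CD8 T cells, and Cd247 0.60 after thinning and 0.29 in CD8 T cells. The cause was not tested. Few NK cells, 1 library per genotype and 3 libraries per bulk group set the limits of these values.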
